A study of Mus musculus with 18 samples.

Results

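Of the tumour necrosis factor (TNF) family and its receptors, 9 genes were followed in mouse basophils: the ligand genes Tnf, Tnfsf9 and Tnfsf14, and the receptor genes Tnfrsf1a, Tnfrsf1b, Tnfrsf4, Tnfrsf9, Tnfrsf18 and Cd40. They were chosen by name, with earlier results of these data known, and their probes were found by gene symbol in the platform annotation of the array. All 9 had a probe, 23 probes in all, and 18 of these probes were above background (detection p-value below 0.05) on 3 or more arrays. They left 8 members among the 9973 genes tested. The exception was Tnfrsf1a, whose 3 probes were above background on 0 of 18 arrays.

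The cells were basophils grown in culture from bone marrow of C57BL/6J animals, 4-6 weeks old, and their RNA was read on 18 Illumina bead arrays in 6 groups of 3. The groups were wild type (WT) and ST2KO cells, each left unstimulated, stimulated for 4 h through IgE, or stimulated for 4 h with the cytokine IL-33. ST2KO cells are labelled as lacking ST2, the receptor for IL-33, which the gene Il1rl1 encodes. The labels give no dose, no sensitising or crosslinking agent for IgE, and no statement that replicates came from separate animals or cultures, so that the spread behind the p-values is that of these samples and may be technical.

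Ligands of the TNF family are mostly trimers on the cell surface, some of which are cut off and act as soluble cytokines. They cluster receptors whose cytoplasmic tails recruit TRAF adaptors or death domain proteins, and from there activate NF-kB and MAP kinases. Basophils are rare granulocytes of type 2 immunity that respond both to crosslinked IgE on the Fc epsilon receptor and to IL-33, and TNF is among the cytokines that IgE-activated basophils and mast cells are known to make.

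Each gene was read from its brightest probe. Its level is the normalized log2 intensity, a change is a difference of mean log2 levels ± standard error with n = 3 arrays per group, and a gene passed at an adjusted p under 0.05 in limma's moderated test over all 9973 genes. Levels of different genes come from different probes and are not compared. Both stimulated WT groups are set against the same unstimulated WT arrays, and both stimulated ST2KO groups against the same unstimulated ST2KO arrays. In RNA of a whole culture, fewer cells of a type and less RNA per cell cannot be told apart.

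Median signals of the arrays lay between 93.2 and 104, and 32.2% to 34.8% of probes were above background on an array. Replicates correlated at 0.981 to 0.994 over the genes tested, and 0 pairs of arrays were identical. No probe used here carried the symbol Il1rl1, so the genotype was not checked on its target. All 9 basophil markers examined, among them Mcpt8, Prss34 and Fcer1a, were above background on all 18 arrays. Markers of other cells were present too: the mast cell markers Kit, Cma1, Tpsb2 and Tpsab1, the macrophage and monocyte markers Adgre1, Cd14, Lyz2 and Csf1r, the neutrophil marker S100a8, the eosinophil marker Prg2 and the lymphoid marker Il7r were also above background on all 18. Others of the lymphoid, dendritic, B cell and neutrophil lists were above background on some arrays, among them Mpo on 14, Klrb1c on 8, Itgax and Siglech on 5, Zbtb46 on 3 and Ms4a1 on 2. The T cell markers Cd3e and Cd3g, the B cell marker Pax5, the dendritic cell markers Flt3 and Xcr1 and the eosinophil markers Epx and Siglecf were on 0.

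Promoter letters of 3 members are shown because these genes gave the responses described next: the cytokine with the largest rise after IgE, the receptor with the lowest p after IL-33, and the receptor with the largest rise after IgE. Each is a RefSeq window of 300 bases on GRCm38.p6, from 250 bases before to 50 after an annotated transcript start, 5′ to 3′ on the strand of the gene. Tnf lies at chr17:35201958-35202257 on the minus strand, Tnfrsf1b at chr4:145246821-145247120 on the minus strand, and the second of the 2 Tnfrsf9 windows at chr4:150927749-150928048 on the plus strand. Capitals mark letters that match an NF-kB form (3 G, any 5 bases, 2 C, on either strand) or the AP-1 form TGANTCA.
Tnf: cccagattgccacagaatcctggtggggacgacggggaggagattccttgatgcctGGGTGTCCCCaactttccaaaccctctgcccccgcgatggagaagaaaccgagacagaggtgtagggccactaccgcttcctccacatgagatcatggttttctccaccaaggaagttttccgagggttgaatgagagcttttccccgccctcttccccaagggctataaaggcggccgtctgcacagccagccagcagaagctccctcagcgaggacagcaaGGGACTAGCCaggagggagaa
Tnfrsf1b: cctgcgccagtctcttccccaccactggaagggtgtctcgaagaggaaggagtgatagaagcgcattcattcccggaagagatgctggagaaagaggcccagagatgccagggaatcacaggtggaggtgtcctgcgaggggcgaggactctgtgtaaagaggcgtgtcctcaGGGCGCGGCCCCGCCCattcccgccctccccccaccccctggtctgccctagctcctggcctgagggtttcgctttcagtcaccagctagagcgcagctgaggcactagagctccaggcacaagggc
Tnfrsf9: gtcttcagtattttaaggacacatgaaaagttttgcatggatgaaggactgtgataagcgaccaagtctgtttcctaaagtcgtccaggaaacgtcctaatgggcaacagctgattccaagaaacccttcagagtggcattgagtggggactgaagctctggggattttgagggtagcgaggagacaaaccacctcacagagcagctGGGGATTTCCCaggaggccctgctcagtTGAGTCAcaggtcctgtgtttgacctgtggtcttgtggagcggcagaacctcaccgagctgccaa
The Tnf window held 2 matches to the NF-kB form, counted once for each place and merged where strands coincide, and 0 to the AP-1 form. The Tnfrsf1b window held 3 NF-kB matches that overlap one another, and the Tnfrsf9 window shown held 2 overlapping NF-kB matches and 1 AP-1 match. The first Tnfrsf9 window, at chr4:150919905-150920204, held 0 of either form, and the second was chosen for display after the matches were seen. Windows were at hand for 7 of the 9 members, 8 windows in all, and the NF-kB form was found in 5 of the 8, those of Tnf, Tnfsf14, Tnfrsf1a and Tnfrsf1b and the second of Tnfrsf9. The AP-1 form was found in 2, that of Tnfsf14 and the second of Tnfrsf9, and the NFAT core GGAAA on either strand in 6, those of Tnf, Tnfsf14, Tnfrsf4 and Tnfrsf18 and both of Tnfrsf9. Over all 32851 windows of the table, 50.8% held the NF-kB form, 7.81% the AP-1 form and 61.3% the NFAT core, so the NF-kB and NFAT letters are common in any promoter. A match describes the letters and is no evidence of binding.

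In WT basophils IL-33 raised 4 of the 8 members tested and lowered 0, where 3.78% of all genes tested passed, 3.01% as higher and 0.772% as lower. The 4 were Tnf, Tnfsf9, Tnfrsf1b and Cd40, and these were also the 4 whose WT arrays did not overlap between the groups, against 17.5% of all genes. The median change of the 8 members was 1.02, and that of all genes was -0.03. IgE raised 7 of 8 in WT and lowered 0, where 47% of all genes passed, 22.7% as higher and 24.3% as lower, and the groups did not overlap for the same 7 against 50.9% of all genes. The median change after IgE was 1.74 for the members and -0.02 for all genes. The member that IgE did not raise was Tnfsf9.

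**Figure D1:**
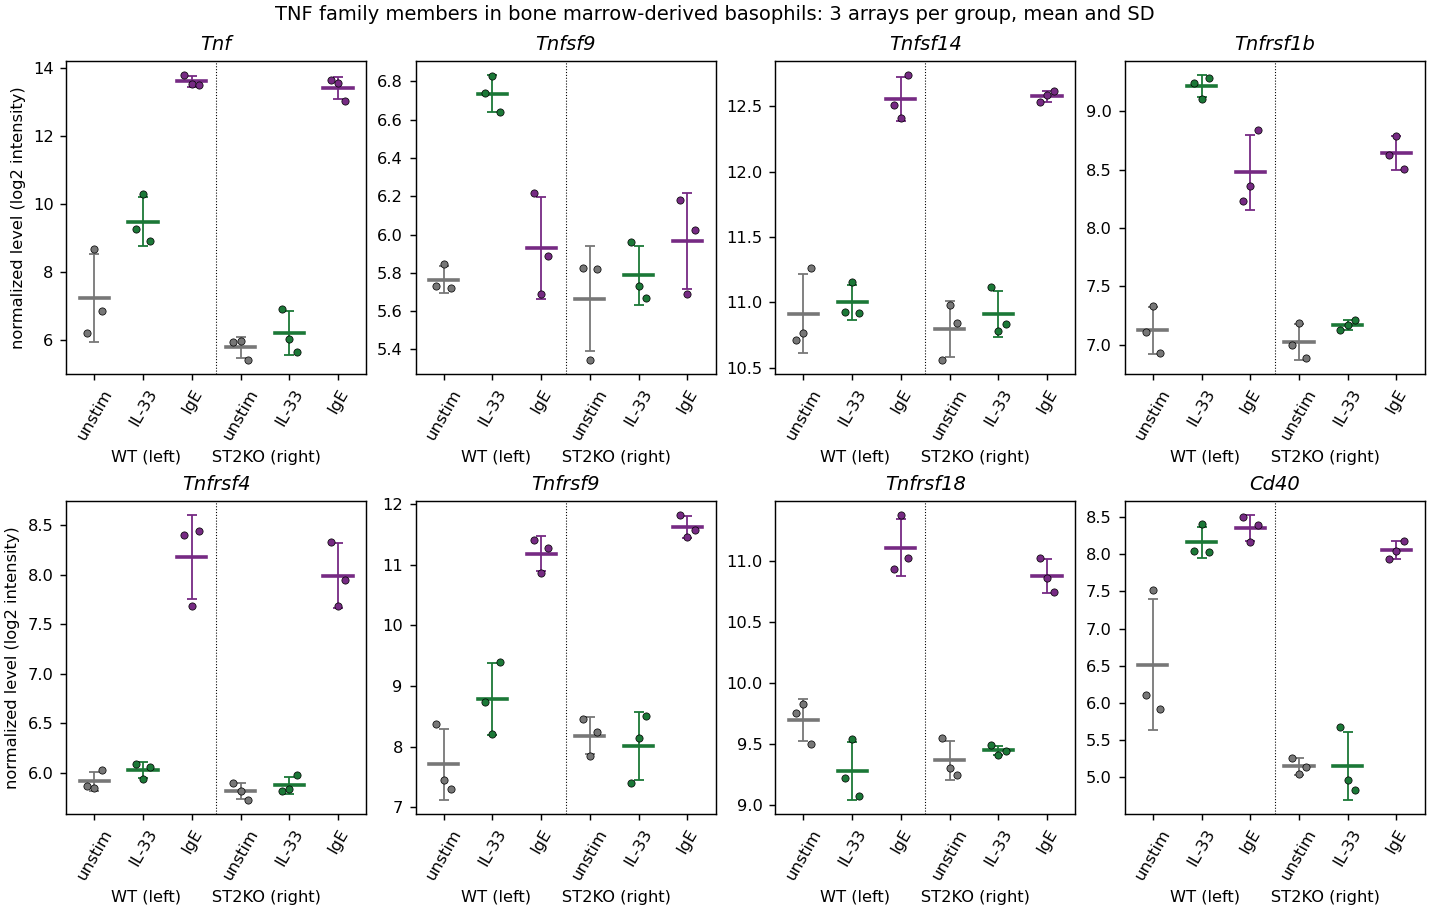
Normalized log2 intensity (vertical axis, a separate scale for each gene) of the 8 members above background in the 6 groups; each point is an array, the horizontal line the mean of 3 and the bar its SD. Tnf, Tnfrsf4, Tnfrsf9, Tnfrsf18 and Tnfsf14 stood highest after IgE in both genotypes, while Tnfsf9 and Tnfrsf1b stood highest after IL-33 in WT.

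Tnf encodes the cytokine TNF, which acts on both TNF receptors. Its levels on the unstimulated WT arrays were 6.20, 8.68 and 6.84 for replicates 1, 2 and 3, on the IL-33 arrays 9.25, 10.28 and 8.90, and on the IgE arrays 13.78, 13.52 and 13.51. The WT groups did not overlap, and replicate 2 was the highest array in the unstimulated and in the IL-33 group. As deposited signal, a linear intensity with background, that is 171, 501 and 186 unstimulated, 700, 1164 and 573 after IL-33, and 13680, 10038 and 12065 after IgE. Tnf rose 4.70-fold after IL-33 (2.23 ± 0.48, adjusted p = 0.0095, limma) and 82.2-fold after IgE (6.36 ± 0.48, adjusted p = 1.4e-08, limma). The rise after IgE was the larger of the pair, and IL-33 minus IgE was -4.13 ± 0.48 when the stimulated groups were compared directly (adjusted p = 2.6e-06, limma).

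The IL-33 call of Tnf depended on the arrays. It ended when the arrays of the compared groups alone were fitted (adjusted p = 0.176), without unstimulated WT replicate 1 (0.0626) or 3 (0.0522), and without WT IL-33 replicate 2 (0.0519), all limma fits. Without unstimulated WT replicate 2 the change was 2.96 after IL-33 and 7.08 after IgE.

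In ST2KO cells the levels of Tnf were 5.95, 5.98 and 5.42 unstimulated, 6.91, 6.03 and 5.65 after IL-33, and 13.64, 13.55 and 13.02 after IgE. The unstimulated and IL-33 arrays overlapped, and every IgE array lay above both. The change after IL-33 was 0.42 ± 0.48 with a 95% confidence interval of -0.60 to 1.43, and Tnf rose 197-fold after IgE (7.62 ± 0.48, adjusted p = 1.7e-09, limma). The unstimulated ST2KO signals were dim (144, 149 and 127), so this fold depends on the processing. Over the alternative settings tried the IgE change ran from 6.34 to 7.81. The order of group means was IgE in WT and in ST2KO, which did not differ beyond their spread, then IL-33 in WT, unstimulated WT, and last the 2 remaining ST2KO groups.

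Tnfsf9 encodes 4-1BBL, the ligand of the receptor that Tnfrsf9 encodes. The probe was dim, with deposited signals of 123 to 188, and the offset used in the normalization compresses changes of such probes. Its levels in WT were 5.73, 5.84 and 5.72 unstimulated, 6.74, 6.83 and 6.64 after IL-33, and 6.22, 5.69 and 5.89 after IgE. The IL-33 arrays lay above all others of either genotype, and the IgE arrays overlapped the unstimulated ones. Tnfsf9 rose 1.96-fold after IL-33 (0.97 ± 0.16, adjusted p = 0.00089, limma). After IgE its change was 0.17 ± 0.16 (adjusted p = 0.428), with an interval of -0.17 to 0.50, and it was higher after IL-33 than after IgE by 0.81 ± 0.16 (adjusted p = 0.00055).

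In ST2KO cells Tnfsf9 stood at 5.83, 5.35 and 5.82 unstimulated, 5.96, 5.73 and 5.67 after IL-33, and 6.18, 5.69 and 6.03 after IgE, all overlapping. The changes there were 0.12 ± 0.16 after IL-33 and 0.30 ± 0.16 after IgE, and neither passed (adjusted p = 0.131 for IgE, limma). Without ST2KO IgE replicate 2 the IgE change was 0.44 and passed (adjusted p = 0.0428).

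Tnfsf14 encodes LIGHT, a ligand of the herpesvirus entry mediator Tnfrsf14 and of the lymphotoxin beta receptor Ltbr. Its WT levels were 10.71, 10.77 and 11.26 unstimulated, 10.92, 11.16 and 10.92 after IL-33, and 12.51, 12.41 and 12.73 after IgE. Unstimulated and IL-33 arrays overlapped and the IgE arrays stood above both. It rose 3.11-fold after IgE in WT (1.64 ± 0.15, adjusted p = 1.4e-07, limma), while its change after IL-33 was 0.08 ± 0.15 with an interval of -0.24 to 0.40. In ST2KO the levels were 10.56, 10.98 and 10.85 unstimulated, 11.11, 10.78 and 10.83 after IL-33, and 12.53, 12.59 and 12.61 after IgE, and IgE raised it 3.43-fold (1.78 ± 0.15, adjusted p = 4.7e-08). All 3 probes of Tnfsf14 above background rose after IgE in WT and none of them passed after IL-33.

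Tnfrsf1b encodes TNF receptor 2, the TNF receptor found mainly on blood cells. Its WT levels were 7.11, 7.33 and 6.93 unstimulated, 9.24, 9.11 and 9.29 after IL-33, and 8.23, 8.36 and 8.84 after IgE. The 3 groups did not overlap, and IL-33 gave the highest. It rose 4.25-fold after IL-33 (2.09 ± 0.15, adjusted p = 6.1e-08, limma) and 2.56-fold after IgE (1.35 ± 0.15, adjusted p = 8.6e-07, limma). In the direct comparison it was higher after IL-33 than after IgE by 0.73 ± 0.15 (adjusted p = 0.00062, limma).

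In ST2KO cells Tnfrsf1b stood at 6.997, 7.19 and 6.89 unstimulated and at 7.13, 7.17 and 7.22 after IL-33, which overlapped, and at 8.63, 8.79 and 8.50 after IgE, above both. The change after IL-33 was 0.14 ± 0.15 with an interval of -0.17 to 0.45, and IgE raised it 3.06-fold (1.61 ± 0.15, adjusted p = 1.0e-07, limma). Ranked by group mean, WT cells after IL-33 came first, then both IgE groups, which did not differ beyond their spread, then the other 3 groups, which did not either. When every probe above background was tested by itself, the other 2 probes of Tnfrsf1b also rose after IL-33 in WT, by 1.80 ± 0.12 and 1.19 ± 0.17. After IgE they differed: one rose by 0.73 ± 0.12, and the dimmest, above background on 8 of 18 arrays, changed by -0.02 ± 0.17 (adjusted p = 0.934, limma).

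Tnfrsf1a encodes TNF receptor 1, which carries a death domain and is found on most cell types. Its deposited signals lay between 87.5 and 107 over 3 probes and 18 arrays, which was not above background anywhere, so no level or fold is given. The data therefore hold a value for 1 of the 2 TNF receptors.

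Cd40 encodes the receptor of CD40 ligand, best known from antigen-presenting cells. Its WT levels were 6.11, 7.52 and 5.92 unstimulated, 8.05, 8.40 and 8.03 after IL-33, and 8.50, 8.17 and 8.39 after IgE. Both stimulated groups lay above the unstimulated arrays and overlapped each other, and unstimulated replicate 2 stood apart from the other two. Cd40 rose 3.12-fold after IL-33 (1.64 ± 0.30, adjusted p = 0.0026, limma) and 3.57-fold after IgE (1.84 ± 0.30, adjusted p = 8.2e-05, limma). The difference between the stimuli was -0.19 ± 0.30 with an interval of -0.83 to 0.44, and it did not pass (adjusted p = 0.646). The IL-33 call ended when the arrays of the compared groups alone were fitted (adjusted p = 0.101), and without unstimulated replicate 2 the change was 2.15.

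In ST2KO cells Cd40 stood at 5.27, 5.04 and 5.14 unstimulated, at 5.68, 4.96 and 4.83 after IL-33, and at 7.93, 8.05 and 8.18 after IgE. The first 2 groups overlapped and the IgE arrays were far above them. IgE raised Cd40 7.48-fold there (2.90 ± 0.30, adjusted p = 4.8e-07, limma). The unstimulated ST2KO signals were dim (120, 114 and 119), and over the alternative settings tried this change ran from 1.58 to 2.96. The change of Cd40 after IL-33 was 0.01 ± 0.30, with an interval of -0.63 to 0.64. Of its 5 probes, 3 matched to transcript NM_170702 moved together, with IL-33 changes in WT of 1.64, 1.55 and 1.002 that all passed. A probe matched to the noncoding transcript NR_027852 changed by 0.01 after IL-33 and by -0.11 after IgE, neither passing, and a probe matched to NM_011611 was above background on 0 arrays.

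The remaining receptors are costimulators best known from T cells: Tnfrsf4 encodes OX40, Tnfrsf9 encodes 4-1BB and Tnfrsf18 encodes GITR. Tnfrsf4 stood at 5.87, 5.84 and 6.02 on the unstimulated WT arrays, 6.09, 5.93 and 6.05 after IL-33, and 8.40, 7.69 and 8.44 after IgE. Only the IgE arrays stood apart. It rose 4.80-fold after IgE in WT (2.26 ± 0.18, adjusted p = 1.9e-08, limma) and 4.51-fold in ST2KO (2.17 ± 0.18, adjusted p = 2.7e-08, limma). In ST2KO the arrays read 5.90, 5.82 and 5.73 unstimulated, 5.81, 5.83 and 5.97 after IL-33, and 8.33, 7.68 and 7.94 after IgE, and again IgE alone stood apart. The change after IL-33 was 0.11 ± 0.18 in WT, with an interval of -0.26 to 0.49.

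Tnfrsf9 stood at 8.38, 7.45 and 7.31 on the unstimulated WT arrays, 8.74, 8.22 and 9.40 after IL-33, and 11.41, 10.87 and 11.27 after IgE. The unstimulated and IL-33 arrays overlapped and spread widely. It rose 11.1-fold after IgE in WT (3.48 ± 0.32, adjusted p = 1.3e-07, limma) and 10.8-fold in ST2KO (3.43 ± 0.32, adjusted p = 1.3e-07, limma). In ST2KO it read 8.45, 7.85 and 8.25 unstimulated, 7.40, 8.14 and 8.50 after IL-33, and 11.82, 11.46 and 11.58 after IgE. Its change after IL-33 in WT was 1.08 ± 0.32 and did not pass (adjusted p = 0.0807, limma). It did pass with array weights (0.0227), with genotype and replicate number as a random block (0.0493), and without unstimulated WT replicate 1 (0.0191) or WT IL-33 replicate 2 (0.0260). With every probe above background tested by itself, the other Tnfrsf9 probe changed by 0.69 ± 0.32 there and did not pass (adjusted p = 0.392, limma).

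Tnfrsf18 stood at 9.76, 9.83 and 9.50 on the unstimulated WT arrays, 9.22, 9.54 and 9.07 after IL-33, and 10.93, 11.37 and 11.02 after IgE. It rose 2.67-fold after IgE in WT (1.42 ± 0.14, adjusted p = 4.0e-07, limma) and 2.86-fold in ST2KO (1.51 ± 0.14, adjusted p = 1.6e-07, limma). In ST2KO it read 9.54, 9.30 and 9.24 unstimulated, 9.49, 9.41 and 9.44 after IL-33, and 11.02, 10.86 and 10.74 after IgE. In both genotypes the IgE arrays lay above all others. Its change after IL-33 in WT was -0.42 ± 0.14, the one negative value among the 8 members, and did not pass (adjusted p = 0.156, limma). It passed with array weights (0.0416) and without WT IL-33 replicate 2 (0.0496). With every probe above background tested by itself, the other Tnfrsf18 probe changed by -0.35 ± 0.16 there and did not pass (adjusted p = 0.375, limma).

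**Figure D2:**
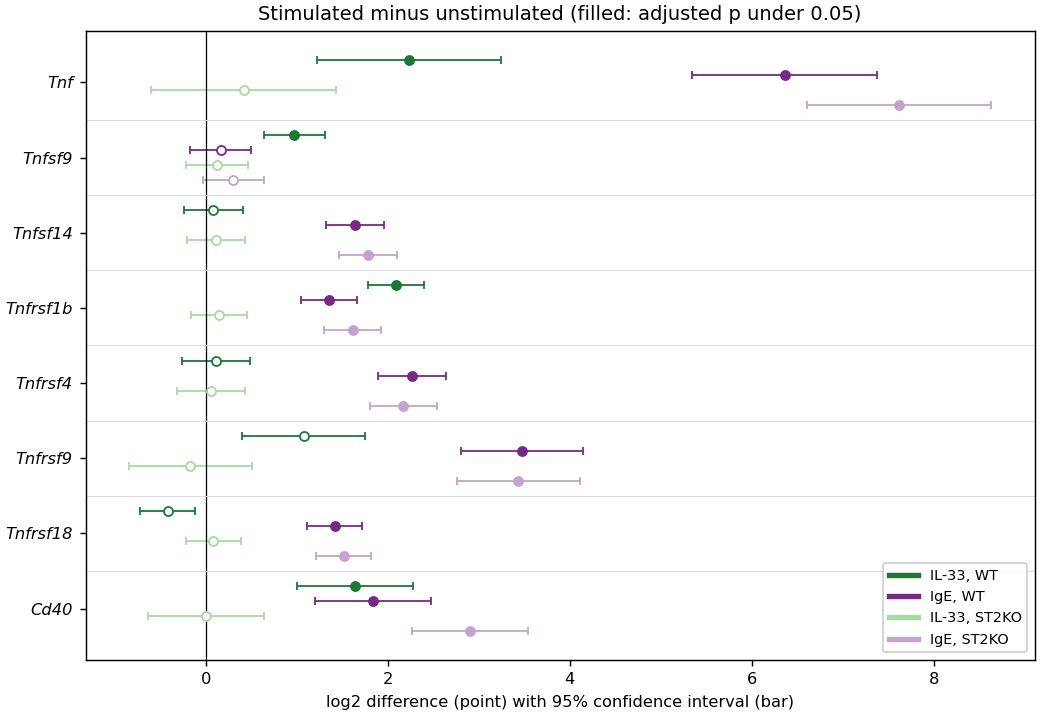
Log2 change against unstimulated cells of the same genotype (horizontal axis) for each member, points with 95% confidence intervals, filled where the adjusted p was under 0.05. After IgE the WT and ST2KO points lay close together for most members, from 1.35 for Tnfrsf1b to 7.62 for Tnf among those that passed, whereas after IL-33 the ST2KO points lay between -0.17 and 0.42.

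The direct comparison of the stimuli in WT thus divided the members. Of the 8, 7 passed, against 43% of all genes, and 5 of them were lower after IL-33 than after IgE (Tnf, Tnfsf14, Tnfrsf4, Tnfrsf9 and Tnfrsf18), where 21.2% of all genes were lower. Another 2 were higher (Tnfsf9 and Tnfrsf1b), where 21.8% of all genes were higher, and Cd40 did not pass. The groups did not overlap for the 7 that passed, against 49% of all genes. Among the costimulatory receptors the difference was -2.40 ± 0.32 for Tnfrsf9, -2.15 ± 0.18 for Tnfrsf4 and -1.83 ± 0.14 for Tnfrsf18. Median differences were -1.69 for the members and 0.01 for all genes.

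In ST2KO cells IL-33 changed 0 of the 8 members by limma's test, 0 at an unadjusted p under 0.05, with 0% of all genes passing. The groups overlapped for all 8, where 9.92% of all genes did not overlap, and the median change was 0.10 for the members. The 95% confidence interval of a single member reached between 0.30 and 1.01 log2 units to either side of its change. IgE raised 7 of 8 in ST2KO, again all but Tnfsf9, where 49.2% of all genes passed, 22.8% as higher and 26.4% as lower, and the groups of those 7 did not overlap, against 60.6% of all genes. The median change after IgE was 1.98 for the members.

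After IL-33, ST2KO cells were lower than WT in 4 of 8 members, where 6.07% of all genes passed, 3.75% as lower and 2.32% as higher. Cd40 was 8.01-fold lower (-3.002 ± 0.30, adjusted p = 3.9e-06, limma) and Tnf 9.68-fold lower (-3.28 ± 0.48, adjusted p = 0.00025, limma). Their ST2KO signals after IL-33 were dim. Over the alternative settings tried the difference ran from -3.26 to -1.66 for Cd40 and from -3.63 to -2.35 for Tnf. Tnfrsf1b was 4.12-fold lower (-2.04 ± 0.15, adjusted p = 7.0e-08) and Tnfsf9 1.93-fold lower (-0.95 ± 0.16, adjusted p = 0.00091). The arrays of the genotypes did not overlap for these 4, against 23.3% of all genes. Tnfrsf9 differed by -0.77 ± 0.32 and did not pass (adjusted p = 0.190, limma), and for Tnfsf14, Tnfrsf4 and Tnfrsf18 the difference lay between -0.15 and 0.17.

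Without stimulation the genotypes also differed in mean for a pair of these genes. Unstimulated ST2KO cells differed from WT by -1.46 ± 0.48 for Tnf and -1.37 ± 0.30 for Cd40, and for both the arrays did not overlap, where 14.6% of all genes did not overlap. Neither passed (adjusted p = 0.553 for each, limma), and 0 of 8 members passed where 0% of all genes did. Tnfrsf18 differed by -0.33 ± 0.14 (adjusted p = 0.581, limma). Without unstimulated WT replicate 2 the differences were -0.74 for Tnf and -0.86 for Cd40. After IgE 0 of 8 members differed between the genotypes, 0 at an unadjusted p under 0.05 as well, where 0.0201% of all genes passed. The IgE groups did not overlap for 1 member, Tnfrsf9 (0.43 ± 0.32, interval -0.24 to 1.11), against 13.1% of all genes.

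The difference of the IL-33 responses themselves, ST2KO minus WT, removes any gap between unstimulated cells. It passed for 1 member, Tnfrsf1b, at -1.94 ± 0.21 (adjusted p = 2.4e-05, limma), where 1.76% of all genes passed, 1.58% as lower and 0.18% as higher. It was -1.64 ± 0.43 for Cd40 (adjusted p = 0.0686), -0.85 ± 0.23 for Tnfsf9 (0.0736), -1.25 ± 0.45 for Tnfrsf9 (0.266) and -1.82 ± 0.68 for Tnf (0.293), none of which passed. The difference for Tnfrsf18 was 0.50 ± 0.20, opposite in sign to these, and did not pass (adjusted p = 0.348, limma). The median over members was -1.05, and 0.01 over all genes. Without unstimulated WT replicate 2 the differences of Cd40 (-2.14, adjusted p = 0.00021) and Tnf (-2.54, adjusted p = 0.0113) passed too, making 3 members. Without ST2KO IL-33 replicate 1 that of Cd40 passed (-1.90, adjusted p = 0.0320), and that of Tnfsf9 passed without ST2KO unstimulated replicate 2 (-1.01, adjusted p = 0.0249) or WT IgE replicate 1 (-0.85, adjusted p = 0.0488). Tnfsf9 also passed in the fit blocked on replicate number (adjusted p = 0.0359), and with genotype and replicate number as a random block Tnfsf9 (0.0363) and Cd40 (0.0398) passed, making 3 members. When every probe above background was tested by itself, the other 2 probes of Tnfrsf1b also passed, at -1.41 ± 0.17 and -1.03 ± 0.24. So did 2 dimmer probes of Cd40, at -1.47 ± 0.29 (adjusted p = 0.0104, limma) and -0.96 ± 0.19 (0.0126). The brightest Cd40 probe (0.0773) and that of the noncoding transcript (-0.07 ± 0.26) did not pass in this test. The difference of the IgE responses passed for 0 of 8 members and 0% of all genes. For Cd40 it was 1.07 ± 0.43 (adjusted p = 0.982, limma).

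**Figure D3:**
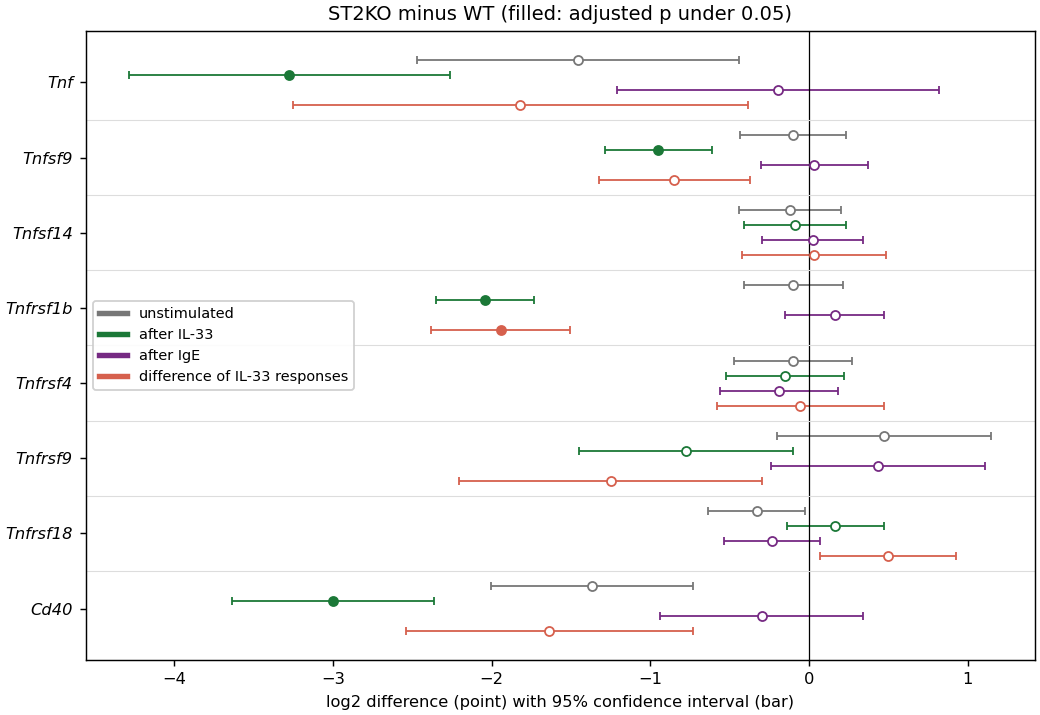
Log2 difference ST2KO minus WT (horizontal axis) for each member without stimulation, after IL-33 and after IgE, and the difference of the IL-33 responses, points with 95% confidence intervals, filled where the adjusted p was under 0.05. After IL-33 the filled points are those of Tnf (-3.28), Cd40 (-3.002), Tnfrsf1b (-2.04) and Tnfsf9 (-0.95), and Tnfrsf1b alone is filled for the difference of responses.

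Markers of other cells were set beside these values. Unstimulated WT replicate 2, the array high for Tnf and Cd40, had a summed normalized intensity of macrophage and monocyte markers of 10346, above the 6850 and 6874 of the other unstimulated WT arrays, and its level of Lyz2, a lysozyme gene of myeloid cells, was 11.97 against 10.88 and 10.69. Over the 5 of 7 listed markers that had a probe the sums ran from 8328 to 9032 after IL-33 in WT, from 6950 to 8907 after IgE in WT, and from 5239 to 7051 over the ST2KO groups. Of these 5, Cd14, the lipopolysaccharide coreceptor, rose after IL-33 in WT (1.38 ± 0.33, adjusted p = 0.0235, limma) and was lower in ST2KO after IL-33, while Adgre1, Csf1r and Lyz2 did not pass in either comparison. Of the listed neutrophil markers, S100a8 reached a signal of 2842, and Mpo reached 170, Ltf 149 and Elane 111. Their sum thus mostly follows S100a8. The summed neutrophil markers, with 4 of 5 listed genes having a probe, were 664, 2731 and 2079 on the unstimulated WT arrays and 217 to 317 on the unstimulated ST2KO arrays. They were 619, 3177 and 238 after IL-33 in WT. Replicate 2 was also the highest array there for Tnf, Cd40 and the macrophage sum (9032). After IL-33 in ST2KO the neutrophil sums were 2038, 232 and 262. Replicate 1 was the highest there for both genes and for the macrophage sum (6574). After IgE in WT, replicate 1 was the highest for both and had the lowest neutrophil (164) and macrophage sums (6950). After IgE in ST2KO, Tnf was highest on replicate 1, and the neutrophil sums differed little (132, 136 and 133). Cd40 was highest there on replicate 3, which had the lowest macrophage sum (5239). Unstimulated ST2KO replicate 2 was highest for Tnf and the neutrophil sum (317). Replicate 1 was highest for Cd40, with the lowest neutrophil sum (217) and the highest macrophage sum (6240). The summed eosinophil markers were 198, 766 and 373 on the unstimulated WT arrays, with Prg2 the 1 marker above background. After IgE, 3 of 6 mast cell markers (Kit, Mcpt4 and Tpsb2) and the dendritic cell markers Itgax and Zbtb46 rose in both genotypes. Of the 9 basophil markers, 1 rose and 3 fell after IgE in WT (Cd200r3, Gata2, Il3ra and Ms4a2 passed), and 1 rose and 2 fell in ST2KO (Gata2, Il3ra and Ms4a2), while 0 passed after IL-33. Their sums lay between 97255 and 113719 on all arrays. The part of other cells in the member values was not tested.

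**Figure D4:**
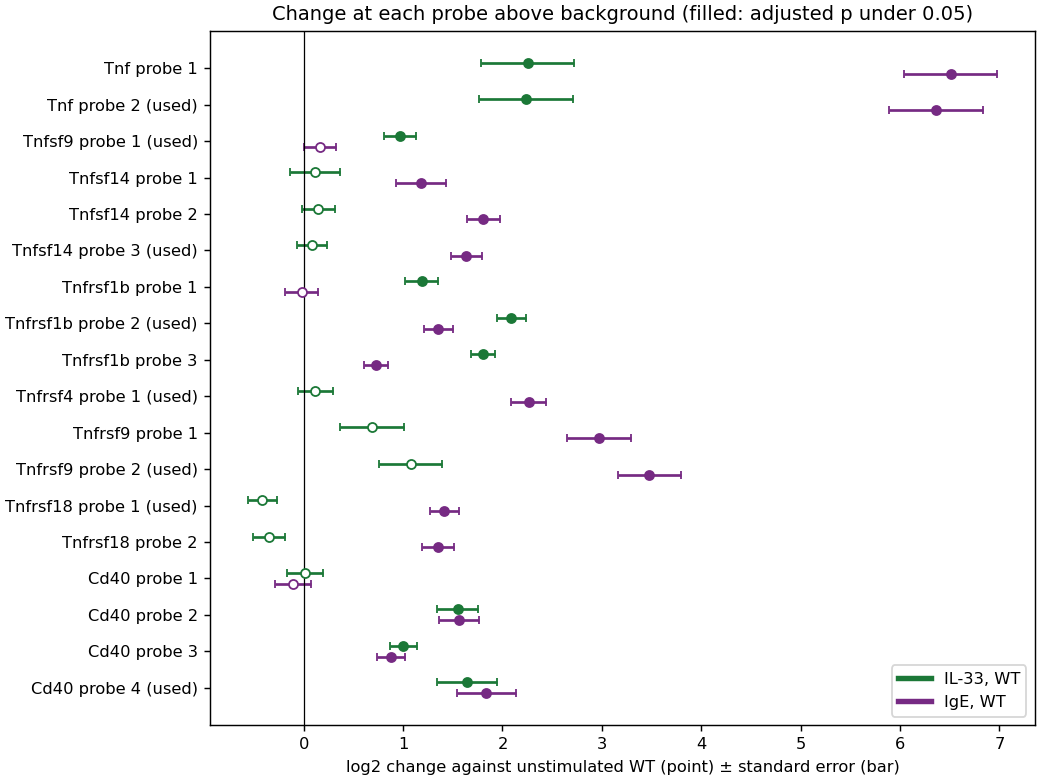
Log2 change in WT after IL-33 and after IgE (horizontal axis, point ± standard error) at each of the 18 member probes above background, filled where the adjusted p over all such probes was under 0.05. The probes of a gene moved the same way where they passed; the Tnfrsf1b probe at -0.02 after IgE and the Cd40 probe at 0.01 after IL-33 and -0.11 after IgE did not pass while other probes of these genes did.

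The genes whose levels followed a member most closely over the 18 arrays are given as a description, since arrays of a group share their treatment. Tnf was closest to Pilra, Cish and Egr2 (Pearson r 0.99 each), and Tnfrsf4 to the cytokine genes Il2 and Il31 and the chemokine gene Xcl1 (0.99 each). Tnfrsf1b was closest to the adhesion molecule gene Icam1 (0.98), the NF-kB inhibitor gene Nfkbia (0.97) and the death receptor gene Fas (0.97). Cd40 was closest to the chemokine genes Ccl3 (0.97) and Cxcl2 (0.97) and to Slc2a6 (0.96). Tnfsf9 was closest to Ttc39a (0.91), Rilpl2 (0.91) and Itih1 (0.90), the lowest set of values among the 8 members.

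Several members lie next to relatives in the genome. In the RefSeq gene table Tnf stands between Ltb and Lta on chromosome 17, Tnfsf9, Cd70 and Tnfsf14 follow one another on the same chromosome, and Tnfrsf4 is next to Tnfrsf18 on chromosome 4. Neighbours did not always move together. In the first of these clusters, IgE raised Lta, which encodes lymphotoxin alpha, 8.31-fold in WT (3.05 ± 0.18, adjusted p = 8.6e-10, limma), while Ltb, its partner in the membrane-bound lymphotoxin, changed by 0.70 ± 0.30 and did not pass (adjusted p = 0.0664). In the second, Cd70, the ligand of the costimulator CD27, lay at background on every unstimulated WT array, and IgE arrays were at least 1.99-fold higher (adjusted p = 7.0e-06). Tnfsf14 rose after IgE as well, and the third gene, Tnfsf9, did not pass. Both neighbours on chromosome 4 rose after IgE and neither passed after IL-33.

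Of the other ligand genes of the family, 8 of the 15 listed were above background and tested. IL-33 changed 0 of them in WT by the adjusted test. Tnfsf4, which encodes the OX40 ligand, changed by 1.25 ± 0.34 and missed the threshold (adjusted p = 0.0514, limma). IgE raised 4 in WT and lowered 1. For all genes the shares in this comparison were 22.7% higher and 24.3% lower. Besides Lta and Cd70 the rises were those of Tnfsf4 (1.08 ± 0.34, adjusted p = 0.0149) and of Tnfsf11, which encodes RANKL and was at least 1.24-fold higher. The fall was that of Tnfsf13b (-0.83 ± 0.16, adjusted p = 0.00042), which encodes the B cell survival factor BAFF. In ST2KO, IgE raised 6 of 8 and lowered 1, where 22.8% of all genes passed as higher and 26.4% as lower. Lta rose 5.38-fold there. Tnfsf4 (-1.22 ± 0.34, adjusted p = 0.0436) and Ltb (-1.20 ± 0.30, adjusted p = 0.0254) were lower in ST2KO than in WT after IL-33. Lta was not above background after IL-33 in WT and was at least 7.39-fold lower there than after IgE.

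Of the other receptor genes, 15 of 22 were tested. Among all genes, 3.01% passed as higher and 0.772% as lower after IL-33 in WT. IL-33 raised 4 in WT and lowered 0: Fas, the death receptor (4.06-fold, 2.02 ± 0.13, adjusted p = 1.3e-08, limma), Tnfrsf13b, the BAFF receptor TACI (2.26-fold, 1.17 ± 0.26), Tnfrsf21, death receptor 6 (1.67-fold, 0.74 ± 0.13), and Tnfrsf25, death receptor 3, not above background on unstimulated arrays and at least 1.25-fold higher. IgE raised 6 and lowered 3 in WT, 9 of 15, where 47% of all genes passed, 22.7% as higher and 24.3% as lower. Tnfrsf22, a decoy receptor for the ligand TRAIL in the mouse, fell 8.24-fold (-3.04 ± 0.19, adjusted p = 2.3e-09), and its relative Tnfrsf23 was not above background after IgE and was at least 2.03-fold lower. Fas rose by 1.60 ± 0.13 and Tnfrsf13b by 1.31 ± 0.26. In ST2KO, IgE raised 6 of 15 and lowered 4, where 22.8% of all genes passed as higher and 26.4% as lower. Tnfrsf22 was 9.84-fold lower and Fas 3.56-fold higher there. The difference of IL-33 responses passed for Fas (-1.99 ± 0.18, adjusted p = 4.0e-06) and Tnfrsf13b (-1.46 ± 0.36, adjusted p = 0.0476).

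Of the adaptors, kinases and ubiquitin enzymes that act below TNF receptors, 25 of 30 were tested. The shares of all genes after IL-33 in WT were 3.01% higher and 0.772% lower. IL-33 raised 4 in WT and lowered 0: the adaptor Traf1 (3.57-fold, 1.84 ± 0.16, adjusted p = 9.4e-07, limma), Tnfaip3, which encodes the ubiquitin-editing inhibitor A20 (3.10-fold, 1.63 ± 0.16), its binding partner Tnip1 (2.53-fold, 1.34 ± 0.12) and the kinase Ikbkb (1.86-fold, 0.89 ± 0.19). IgE raised 9 and lowered 4 in WT, 13 of 25, which is near the 47% of all genes that passed. Traf1 rose by 1.56 ± 0.16, Tnfaip3 by 0.87 ± 0.16 and the adaptor Traf4 by 0.68 ± 0.19, and the kinase Map3k14, which drives the noncanonical NF-kB pathway, fell by 0.92 on the log2 scale. In the direct comparison 8 of 25 were higher after IL-33 than after IgE and 3 were lower. Of all genes 21.8% were higher and 21.2% lower, and 43% passed. Among the higher were Tnfaip3 (0.77 ± 0.16), Tnip1 (0.85 ± 0.12), Ikbkb (0.96 ± 0.19) and Ikbkg (0.91 ± 0.16). The difference of IL-33 responses passed for Tnfaip3 (-1.95 ± 0.23), Traf1 (-1.69 ± 0.23), Tnip1 (-1.301 ± 0.16) and Ikbkb (-1.08 ± 0.27), each lower in ST2KO. In ST2KO, IgE raised 8 of 25 and lowered 4, where 22.8% of all genes passed as higher and 26.4% as lower.

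All 5 genes listed for the shedding of TNF and its receptors were tested. Adam17, the protease that releases TNF from the cell surface, rose 1.36-fold after IL-33 (0.45 ± 0.12, adjusted p = 0.0374, limma) and 1.38-fold after IgE (0.46 ± 0.12, adjusted p = 0.0032, limma) in WT. Rhbdf2 and Rhbdf1, which encode the iRhom partners that ADAM17 needs, rose after IgE by 1.01 ± 0.23 and 0.92 ± 0.18 in WT and by 1.39 ± 0.23 and 0.55 ± 0.18 in ST2KO. IL-33 changed 0 genes of any of the 4 lists in ST2KO. These lists were chosen with earlier results of the same data known, and their counts are read beside the background shares given for each comparison.

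**Figure D5:**
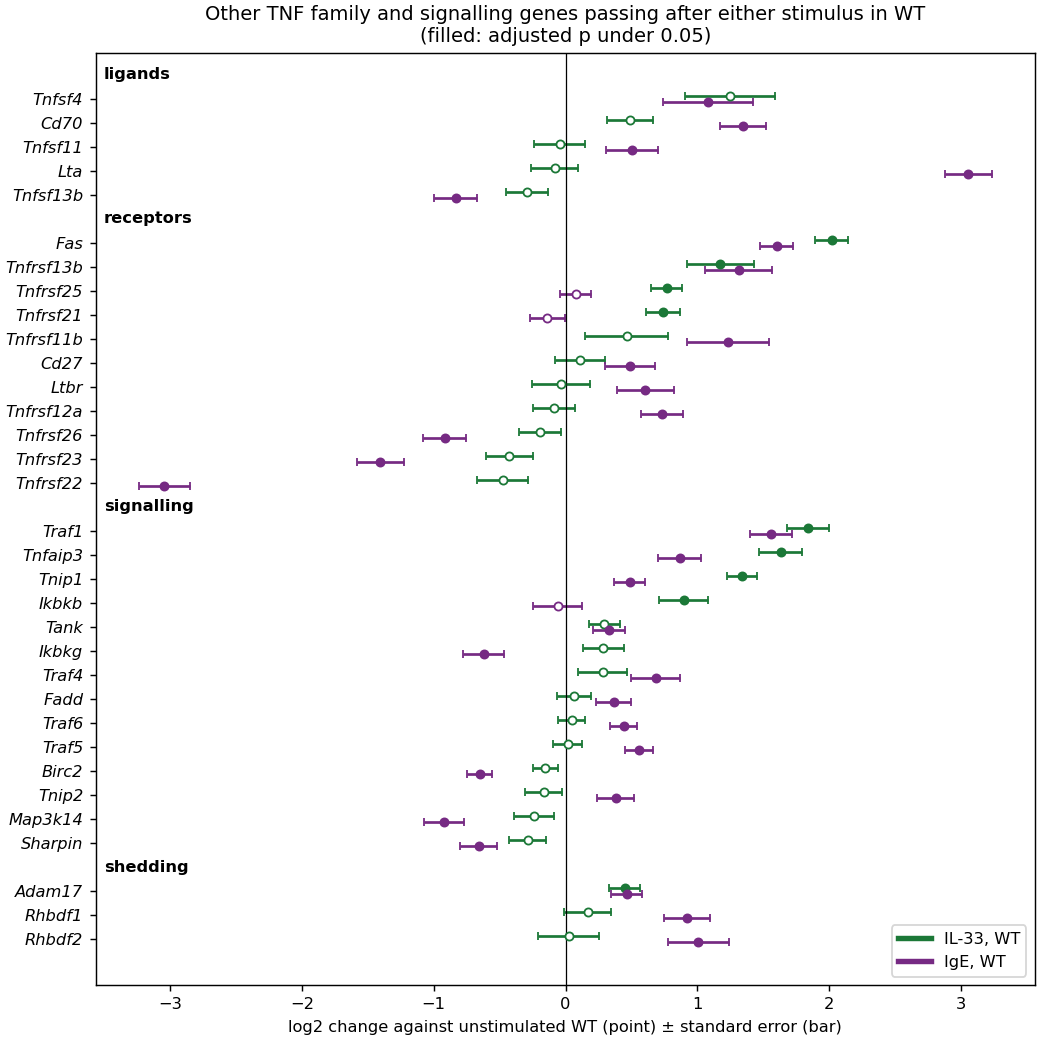
Log2 change in WT after IL-33 and after IgE (horizontal axis, point ± standard error) of the 33 listed genes outside the 9 members that passed after either stimulus, by role, filled where the adjusted p was under 0.05. Fas, Traf1 and Tnfaip3 lead the rises after IL-33 and Lta those after IgE, with Tnfrsf22 lowest. For Cd70, Tnfsf11, Tnfrsf25, Tnfrsf11b, Cd27, Ltbr, Tnfrsf23 and Traf5 a group had no array above background and the plotted change is no measure of its size.

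Receptors and ligands that bind each other could be set side by side for a few of these genes. For the 4-1BB system the receptor gene Tnfrsf9 rose after IgE and the ligand gene Tnfsf9 after IL-33 in WT. The change of Tnfrsf9 after IL-33 was 1.08 ± 0.32 and did not pass (adjusted p = 0.0807, limma), though it passed in some alternative fits. For OX40 both the receptor gene Tnfrsf4 and the ligand gene Tnfsf4 rose after IgE. The estimated change of Tnfsf4 in WT was larger after IL-33 than after IgE but narrowly missed the threshold. After IL-33, Tnfsf4 was lower in ST2KO than in WT. The ligand genes Cd40lg and Tnfsf18, partners of Cd40 and Tnfrsf18, and the receptor gene Tnfrsf14, a partner of Tnfsf14, had probes that were not kept, since they were not above background on at least 3 arrays. The arrays measure RNA, and no protein or binding was measured.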

How the data were processed

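The deposited signal table holds an intensity, on a linear scale and with background, and per the file headers a detection p-value for each. The authors also deposited processed log2 values, whose median was 4.29 on each array; their ranks followed the signals (correlation 1), and whether a constant was added is unknown. Per the labels' protocols, RNA came from a column kit, was checked for quality and carried a biotin label. The scanner software and the authors' background treatment are not given in the sources used here.

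Signals were corrected and quantile-normalized by the neqc function (limma 3.58.1, R 4.3.3; background from the detection p-values, offset of 16), and 4 blank lines were left out. Kept were 18078 of 45281 probes, those with detection p-values below 0.05 on 3 or more of the 18 arrays. The platform annotation gave 34885 probes 1 symbol, 18 several and 10378 none; 34807 of the first kind matched the RefSeq gene table, and 0 symbols changed. The brightest kept probe stood for a gene, which left 9973 genes. Group means were fitted to all 18 arrays with lmFit, and 10 contrasts were tested two-sided with eBayes and Benjamini-Hochberg adjustment over all genes. The number of arrays limits the precision: half-widths of 95% intervals had a median of 0.32 log2 units for 2 groups and 0.45 for a difference of responses. Where no array of a group was above background, a fold is a lower limit, written as at least that fold: the bright group's mean against a floor, per array the lowest detected level or the probe's own if higher. The fit was tested on simulated data.

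The members and lists were chosen with earlier results of these data known. The text names every member whatever its test, and from each list up to 4 genes with the largest change among those that passed; Ltb and Tnfsf4 are also named where they did not pass, and Tnfsf11 beside the other rises, after their values were seen. Same-numbered arrays were checked for pairing by correlating deviations from group means: over the 3 WT pairings the values ran from 0.14 to 0.59. In ST2KO they were 0.12, 0.15 and 0.21 between unstimulated and IgE arrays. They were -0.03, 0.04 and 0.26 between unstimulated and IL-33 arrays and -0.03, 0.11 and 0.11 between IgE and IL-33 arrays. Between the genotypes they ran from -0.34 to 0.39, which overlaps these ranges. The labels state no pairing, so whether the numbers pair the samples is not settled by this measure. Promoter windows are from RefSeq, GRCm38.p6.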

Additional observations from a re-analysis of the deposited data

Results flagged for a closer look

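The response of Tnfrsf1b to IL-33 differed between the genotypes in a test of the difference itself. ST2KO minus WT was -1.94 ± 0.21 log2 units (adjusted p = 2.4e-05, limma, n = 3 arrays per group), with a rise of 2.09 ± 0.15 in WT and a change of 0.14 ± 0.15 in ST2KO. All 3 IL-33 arrays of WT lay above all ST2KO IL-33 arrays, and over the alternatives tried the difference ran from -2.10 to -1.46 and passed in each. No group held enough arrays for a check of single outlying values.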

How the results depend on the processing

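Of 80 pairs of a member and a comparison, 30 passed, and 28 of these passed under every other setting fitted for their comparison, at most 33 (the block within each genotype gives no comparison between genotypes); 0 called values reversed. The exceptions were the IL-33 changes of Tnf and Cd40 in WT, given with the results, so that with the arrays of the compared groups alone 2 members passed after IL-33 in WT in place of 4 (197 of all genes in place of 377). The number of members whose IL-33 response differed between genotypes was 3 in place of 1 without background correction, with an offset of 50, with array weights, with genotype and replicate number as a random block and without the 3 WT number 2 arrays, and 2 with the mean of kept probes and with the replicate block. Of all genes, 1.76% passed this comparison in the main fit. Over these settings the share ran from 1.71% with the mean of kept probes to 3.01% with array weights. The members added were Cd40 and Tnfsf9, except without the WT number 2 arrays, where Tnf took the place of Tnfsf9. The cause was not tested. Leaving out each array in turn gave 3 to 5 members after IL-33 in WT, with 2.85% to 4.19% of all genes passing. After IgE in ST2KO it gave 7 to 8 members (43.3% to 50% of all genes). For the difference of IL-33 responses it gave 1 to 3 members (1.38% to 1.91% of all genes). The count of members was the same elsewhere. The replicate number as a fixed block changed 1 call, that of Tnfsf9 for the difference of IL-33 responses (adjusted p = 0.0359), and a replicate block within each genotype, added after seeing the data, changed 0. Without background correction the change of Tnf after IgE in WT was smallest (5.68). Array weights gave 641 genes in place of 377 after IL-33 in WT, 1347 in place of 605 between genotypes after IL-33, and 300 in place of 176 for the difference of IL-33 responses. Testing every kept probe gave 7620, 6780 and 7984 calls in place of 4685, 4285 and 4907 after IgE in WT, between stimuli and after IgE in ST2KO, since more probes were tested. The genes differing between genotypes after IL-33 numbered 365 without WT IL-33 replicate 1, 357 without ST2KO IL-33 replicate 2 and 369 without ST2KO IL-33 replicate 3, and those after IgE, 2 at first, ran from 0 to 14. Of 1615 alternative values that did not pass in the main analysis, 43 changed sign. Dim probes such as that of Tnfsf9 have compressed changes.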
